A study of Rattus norvegicus with 10 samples.

Results

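Transcripts of 39 lysosomal genes, taken from a list of names, were followed in the supraoptic nucleus of rats after a knock-down of Opn3. The list was chosen with earlier results of these data known. Of the 39 genes, 38 had a row in the deposited table of 32623 genes, and Sgsh was not analysed here. All 38 passed the filter of a mean of at least 10 normalized counts over the 10 samples, and so entered the test across 15597 genes. The smallest group mean among them was that of Ctse in shControl (77.5 normalized counts), so no gene passed the filter through a single group.

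The samples came from male Sprague Dawley rats, an outbred strain, that weighed 250 to 300 g. Adeno-associated virus had carried a short hairpin RNA against Opn3, which encodes the light-sensitive receptor opsin 3, into the supraoptic nucleus of one side, and a non-targeting hairpin into that of the opposite side. The groups are called shOpn3 and shControl, with 5 samples each, so that both had received virus and a hairpin, and no uninjected tissue was analysed here. Nuclei were taken 2 weeks later with a 1-mm punch from 100 μm coronal sections and extracted singly. The age of the rats, the side given each virus, the promoter of the hairpin, its sequence and the cells it entered are not given in the sources used here. A punch of this nucleus holds neurons, glia and vessels together, and in such bulk tissue a larger number of cells of a type and more RNA per cell cannot be told apart.

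Libraries held between 33158341 and 39958578 reads, and no difference between the totals of the groups was detected (p = 0.492 by an exact permutation test, two-sided). Opn3 fell from 704 ± 277 to 188 ± 59.7 normalized counts (mean ± SD, n = 5 each, log2 change -1.82 with SE 0.320, limma adjusted p = 0.00226), and was lower in shOpn3 in 5 of 5 same-numbered pairs. Avp and Oxt, which mark the magnocellular neurons of this nucleus, had at least 3810 normalized counts in every library. Both fell in shOpn3, with log2 changes of -2.35 for Avp (SE 0.426, limma adjusted p = 0.00269) and -2.21 for Oxt (SE 0.328, limma adjusted p = 0.000915). Of the 15597 genes tested, 2940 (18.8%) passed limma with an adjusted p below 0.05. The shOpn3 level was the higher one for 1618 of these (10.4% of those tested) and the lower one for 1322 (8.48%). The median log2 fold change of all genes tested was -0.02.

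Lysosomes are acidic organelles in which proteins, glycans, lipids and nucleic acids are broken down. Their soluble enzymes are made in the endoplasmic reticulum and sorted to the lysosome, largely by the mannose 6-phosphate tag, while heavily glycosylated proteins such as LAMP1 and LAMP2 line the membrane. Transcription of many of these genes is driven by TFEB and its relatives through a palindromic element known as CLEAR. Every cell has lysosomes, but in brain the microglia, the resident macrophages, are particularly rich in cathepsins, and neurons depend on lysosomal clearance throughout life, as the lysosomal storage diseases show.

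Promoters were examined because 2 kinds of short sequence are known for lysosomal and for macrophage genes. RefSeq windows from 250 bases before to 50 bases after the gene start (assembly GRCr8) were matched by symbol for 32 of the 39 genes. Those of Ctsb, Hexa, Arsa, Arsb, Asah1, Ppt1 and Psap were not matched. The CLEAR core was searched as TCACGTGA, which reads the same on both strands and contains the shorter E-box CACGTG. The core bound by PU.1, a transcription factor of macrophages and microglia, was searched on both strands as GAGGAAGT. The CLEAR core stood in 4 of the 32 windows (12.5%), those of Ctsd, Lamp1, Cln3 and Mcoln1, against 1.64% of 10402 tested genes with a matched window and 0.777% of all 33469 windows. The E-box stood in 9 of the 32 (28.1%), against 9.17% of the matched tested genes and 6.42% of all windows. The PU.1 core stood in 4 of the 32 (12.5%), those of Ctsc, Ctss, Ctse and Gla, against 2.70% of the matched tested genes and 2.42% of all windows. No test was made of these shares, and a match in such a window is a description of its letters.

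The stretches of 120 bases around the matches are shown for these 8 genes, 5′ to 3′ on the strand of the gene, because the genes that hold each core are set beside the comparison of the groups further on. First come the windows with the PU.1 core, whose match is in capitals and in each of them lies on the opposite strand, so that it reads ACTTCCTC.
Ctsc, chr1:151440799-151440918 (+ strand): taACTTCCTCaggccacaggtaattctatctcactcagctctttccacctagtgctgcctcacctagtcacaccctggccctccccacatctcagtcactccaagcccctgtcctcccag
Ctss, chr2:185775296-185775415 (+ strand): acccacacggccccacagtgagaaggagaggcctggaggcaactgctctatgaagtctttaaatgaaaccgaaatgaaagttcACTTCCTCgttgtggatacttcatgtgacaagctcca
Ctse, chr13:45644104-45644223 (+ strand): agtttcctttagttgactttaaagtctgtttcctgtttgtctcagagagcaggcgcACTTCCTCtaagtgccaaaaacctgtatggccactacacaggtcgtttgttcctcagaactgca
Gla, chrX:102074046-102074165 (- strand): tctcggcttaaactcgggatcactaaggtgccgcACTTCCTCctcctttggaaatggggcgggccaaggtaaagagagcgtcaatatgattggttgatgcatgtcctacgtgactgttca
Next come the windows with the CLEAR core, again in capitals, which occurs more than once in that of Lamp1.
Ctsd, chr1:206968802-206968921 (- strand): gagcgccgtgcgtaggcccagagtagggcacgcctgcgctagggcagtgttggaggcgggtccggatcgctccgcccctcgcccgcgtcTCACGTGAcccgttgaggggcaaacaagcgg
Lamp1, chr16:83075066-83075185 (- strand): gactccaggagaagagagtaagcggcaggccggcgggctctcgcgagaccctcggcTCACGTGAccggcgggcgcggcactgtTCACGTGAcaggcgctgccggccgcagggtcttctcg
Cln3, chr1:190597910-190598029 (- strand): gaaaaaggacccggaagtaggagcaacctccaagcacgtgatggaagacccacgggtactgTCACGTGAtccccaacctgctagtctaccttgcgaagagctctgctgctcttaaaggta
Mcoln1, chr12:6358158-6358277 (+ strand): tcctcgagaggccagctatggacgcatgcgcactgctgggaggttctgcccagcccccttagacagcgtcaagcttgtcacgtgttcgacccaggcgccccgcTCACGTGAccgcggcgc

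Of the 38 lysosomal genes tested, 12 (31.6%) were called, 10 of them higher (against 10.4% of all genes tested) and 2 lower (against 8.48%). The rises were led by Ctse, Laptm5, Ctsz, Grn, Ctsc, Ctss and Ctsh, which lay at 1.67 to 2.62 times the control mean, and the smaller rises were those of Ctsk, Ctsb and Manba. The falls were those of Gaa and Ctsf. The other 26 genes had log2 fold changes between -0.65 and 0.38 and did not pass the test. The median log2 fold change of the 38 genes was 0.16, beside -0.02 over all genes tested, and 24 of the 38 (63.2%) had a positive value, against 47.0% of all genes tested. When replicate numbers entered limma as a block, 17 of the 38 were called (30.3% of all genes tested were), 12 higher (15.1%) and 5 lower (15.2%). In the same samples 12 of 13 microglial markers were called higher (median log2 fold change 1.06) and 10 of 10 oligodendrocyte markers (median -1.24) and 9 of 10 magnocellular markers (median -1.59) lower, and their part in the changes of the lysosomal genes was not tested.

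**Figure D1:**
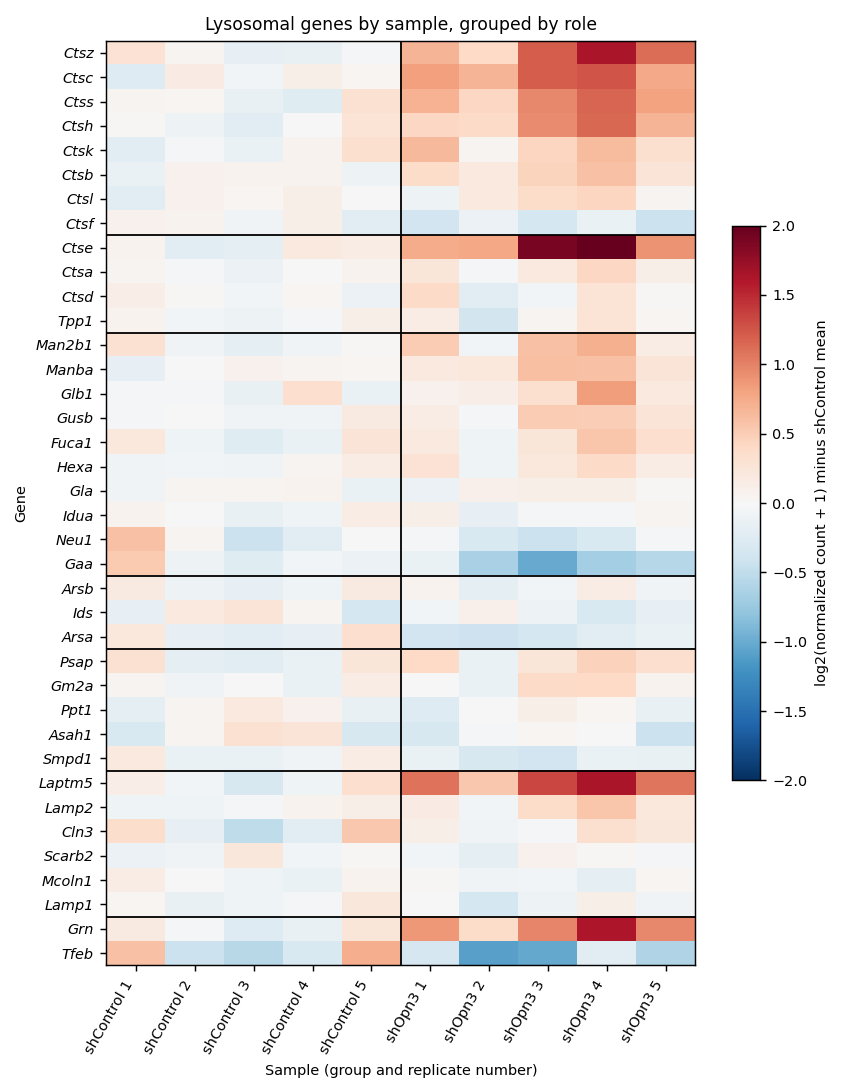
Each row is a lysosomal gene and each column a sample; colour gives log2(normalized count + 1) minus the shControl mean of that gene, and lines separate the roles and the groups. Red fills the shOpn3 columns for Ctsz, Ctsc, Ctss, Ctsh, Ctse, Laptm5 and Grn, deepest in replicates 3 and 4, while most other rows stay pale in both groups.

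**Figure D2:**
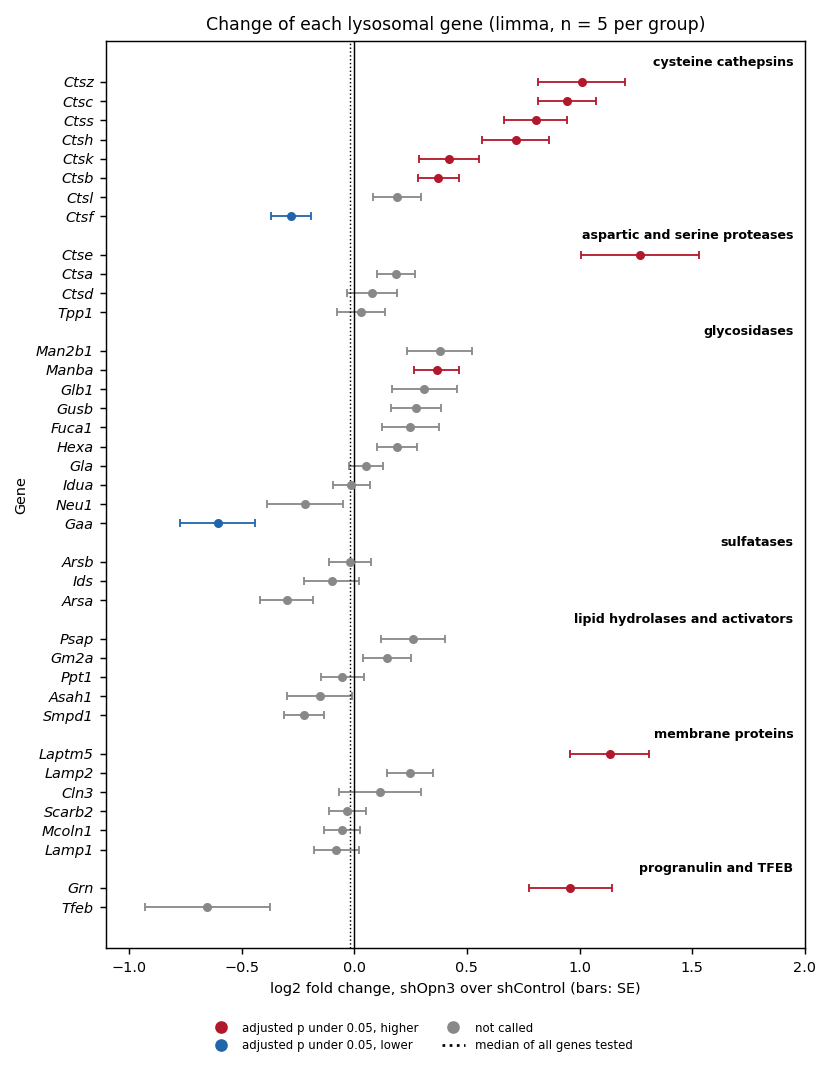
Points are log2 fold changes of shOpn3 over shControl from limma with their SE (n = 5 per group), ordered within each role; red and blue mark genes with an adjusted p under 0.05. Of the 8 cysteine cathepsins 6 lie to the right and called, and Ctsf alone lies to the left and called. The 3 sulfatases and the 5 lipid hydrolases and activators hold no call, beside 18.8% called over all genes tested. These roles hold too few genes to set 0 calls apart from that share. With the replicate block 1 sulfatase and 1 lipid hydrolase were called lower.

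Cysteine cathepsins, the papain-like proteases of the lysosome, formed the role with the most calls: 6 of 8 rose, 1 fell, and Ctsl did not pass the test. Their share called was 87.5%, against 18.8% of all genes tested. Ctsz (ENSRNOG00000050697), which encodes the carboxypeptidase cathepsin Z, had 1379, 1173, 1009, 1026 and 1114 normalized counts in shControl replicates 1 to 5 and 1824, 1498, 2617, 3506 and 2462 in shOpn3 replicates 1 to 5. All 5 shOpn3 samples lay above all shControl samples, with replicates 1 and 2 closest to the controls. Ctsz thus rose from 1140 ± 149 to 2381 ± 778 (mean ± SD, n = 5 each, log2 change 1.01 with SE 0.193, limma adjusted p = 0.00361).

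Ctsc (ENSRNOG00000016496) encodes cathepsin C, the dipeptidyl peptidase that activates serine proteases of immune cells. It had 612, 818, 703, 798 and 753 normalized counts in the shControl replicates and 1290, 1179, 1690, 1761 and 1241 in the shOpn3 replicates. The groups were well apart, and the change was the one with the smallest adjusted p of the set (log2 change 0.95 with SE 0.129, limma adjusted p = 0.000613).

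Ctss (ENSRNOG00000021157), the elastinolytic cathepsin S that trims the MHC class II invariant chain in antigen-presenting cells, had 11290, 11146, 9777, 9224 and 13482 normalized counts in shControl and 17581, 14495, 21124, 24436 and 18968 in shOpn3. The groups did not overlap, and the lowest shOpn3 value, in replicate 2, lay only just above the highest control value, in replicate 5. Ctss rose by 0.81 in log2 terms (SE 0.140, limma adjusted p = 0.00209). Ctsh (ENSRNOG00000014064), an aminopeptidase, had 4196, 3834, 3532, 4139 and 4977 normalized counts in shControl and 5478, 5354, 7927, 9144 and 6608 in shOpn3. It too was separated between the groups, and it rose by 0.72 (SE 0.148; limma adjusted p = 0.00549).

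Of the remaining rises in this role, Ctsb, the widely expressed cathepsin B, went from 29138 ± 2077 to 37822 ± 4019 normalized counts (mean ± SD, n = 5 each, log2 change 0.37 with SE 0.0914, limma adjusted p = 0.0136) with no overlap between the groups. That call was lost without replicate 1 or 3 of both groups (limma adjusted p = 0.0501 and 0.0613). Ctsk, the collagen-degrading cathepsin K of osteoclasts, went from 705 ± 107 to 946 ± 154 (mean ± SD, n = 5 each, log2 change 0.42 with SE 0.133, limma adjusted p = 0.0438), with overlapping groups and a higher value in 4 of 5 pairs. Ctsl, the broad endopeptidase cathepsin L, had 11928 ± 1031 and 13686 ± 2016 (mean ± SD, n = 5 each, log2 change 0.19 with SE 0.107, limma adjusted p = 0.247) and was higher in 5 of 5 pairs without passing the test.

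Ctsf (ENSRNOG00000019708) went against the rest of its role. Cathepsin F is a cysteine protease whose loss causes a neuronal storage disease. Its normalized counts were 5495, 5443, 4936, 5607 and 4496 in shControl and 3977, 4795, 4067, 4705 and 3839 in shOpn3. The groups overlapped only through shControl replicate 5, and each shOpn3 sample lay below the same-numbered control. Ctsf fell by 0.28 in log2 terms (SE 0.0890, limma adjusted p = 0.0444), a call close to the threshold that was made in 13 of 28 alternative fits. Ctsk was likewise called in 15 of the 28.

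Among the proteases of other classes, 1 of 4 was called (25%, against 18.8% of all genes tested). Ctse (ENSRNOG00000006963) encodes cathepsin E, an aspartic protease of endosomes in immune cells. It had 80.5, 66.1, 67.4, 88.0 and 85.5 normalized counts in shControl and 130, 132, 291, 318 and 144 in shOpn3. No value was shared between the groups, and the shOpn3 samples fell into a higher pair (replicates 3 and 4) and 3 samples nearer the controls. This was the largest change of the set, from 77.5 ± 10.2 to 203 ± 93.3 (mean ± SD, n = 5 each, log2 change 1.27 with SE 0.263, limma adjusted p = 0.00565).

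Ctsd (ENSRNOG00000020206), the principal lysosomal aspartic protease, had 19225, 17827, 16850, 17980 and 16188 normalized counts in shControl and 23022, 15001, 16867, 21278 and 17802 in shOpn3. The shOpn3 samples spanned the control range on both sides (log2 change 0.08 with SE 0.113, limma adjusted p = 0.679). Ctsa, the protective protein that stabilises neuraminidase and beta-galactosidase, had a log2 fold change of 0.18 with an SE of 0.0826 (limma adjusted p = 0.145). Tpp1, a tripeptidyl peptidase lost in a childhood form of neuronal ceroid lipofuscinosis, had one of 0.03 (SE 0.107, limma adjusted p = 0.882).

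**Figure D3:**
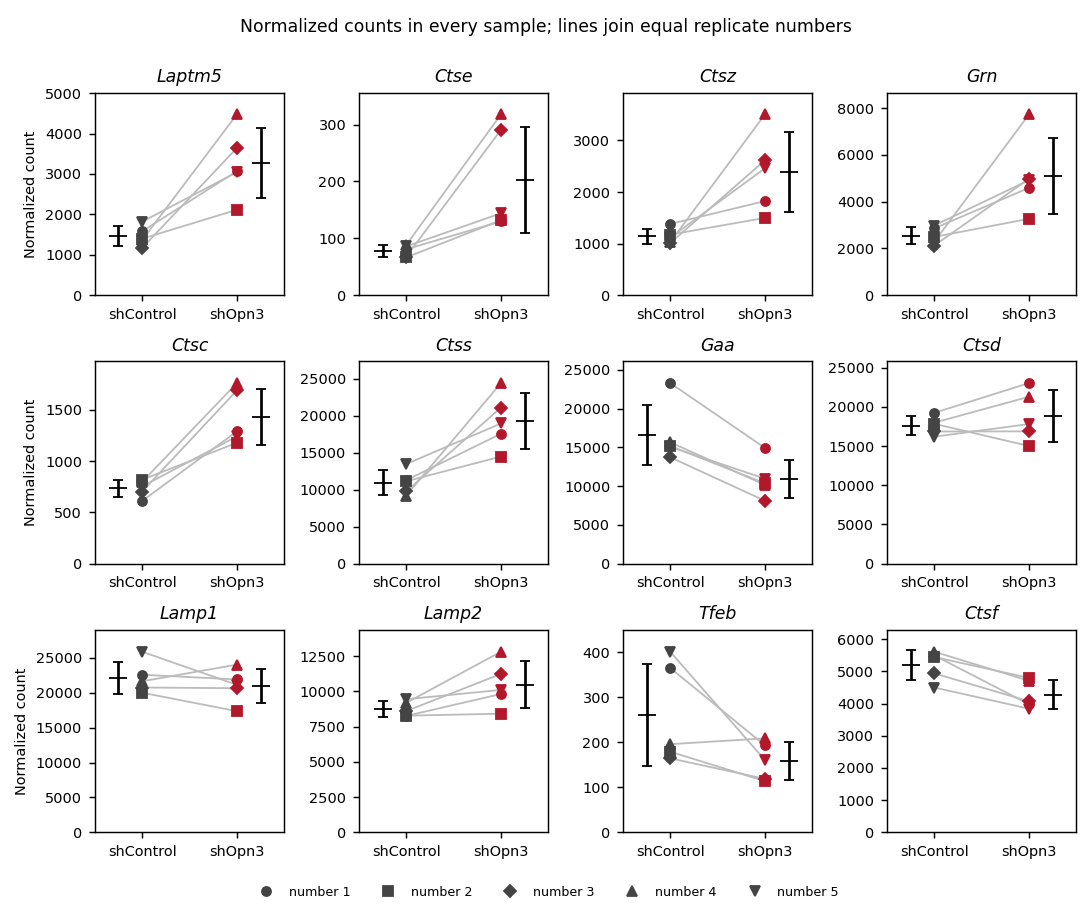
Normalized counts per sample for 12 genes, with a marker for each replicate number, grey lines between equal numbers, and bars for the mean ± SD of each group (n = 5). Laptm5, Ctse, Ctsz, Grn, Ctsc and Ctss lie higher in every shOpn3 sample than in any control, Gaa is lower in 5 of 5 pairs, and the groups overlap for Ctsd and Lamp1.

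The 10 glycosidases, which trim sugars from glycoproteins, glycolipids and glycosaminoglycans, held 1 rise and 1 fall. These calls, 20% of the role, were near the 18.8% of all genes tested. Gaa (ENSRNOG00000047656) encodes acid alpha-glucosidase, which breaks down glycogen and is deficient in Pompe disease. It had 23279, 15164, 13718, 15655 and 15064 normalized counts in shControl and 14919, 10362, 8108, 10147 and 10956 in shOpn3. The sample shOpn3 replicate 1 reached into the control range, and its same-numbered control was the highest of all, so that the decrease was of similar size in each pair (log2 differences from -0.76 to -0.46). Gaa fell from 16576 ± 3815 to 10898 ± 2491 (mean ± SD, n = 5 each, log2 change -0.61 with SE 0.166, limma adjusted p = 0.0235). The call was lost after scaling to the total of all genes (log2 fold change -0.54, limma adjusted p = 0.0549), after quantile normalization (-0.49, limma adjusted p = 0.0715) and without shOpn3 replicate 3 (-0.51, limma adjusted p = 0.0641). It was also lost without replicate 2, 3, 4 or 5 of both groups (limma adjusted p from 0.0581 to 0.0818).

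Manba, the beta-mannosidase of N-glycan breakdown, rose from 1273 ± 86.4 to 1651 ± 239 normalized counts (mean ± SD, n = 5 each, log2 change 0.37 with SE 0.100, limma adjusted p = 0.0231), with no overlap between the groups. The call was lost when shControl replicate 1 or 2, or shOpn3 replicate 3 or 4, was left out (limma adjusted p from 0.0508 to 0.0661), and without replicate 3 or 4 of both groups (0.0819 and 0.0848). The alpha-mannosidase gene Man2b1 had a similar estimate that did not pass (0.38, SE 0.145, limma adjusted p = 0.0918). Glb1, the beta-galactosidase of GM1 ganglioside, had a log2 fold change of 0.31 with an SE of 0.144 (limma adjusted p = 0.158) and was higher in 5 of 5 pairs. It passed with the replicate block (limma adjusted p = 0.0162).

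The remaining glycosidases did not pass in either fit. Gusb, the beta-glucuronidase, had a log2 fold change of 0.27, Fuca1, the alpha-fucosidase, one of 0.25, and Hexa, the alpha subunit of the hexosaminidase lost in Tay-Sachs disease, one of 0.19. The values were 0.05 for Gla, the alpha-galactosidase of Fabry disease, and -0.01 for Idua, the iduronidase of Hurler syndrome. For Neu1, the sialidase, it was -0.22, and shControl replicate 1 (696 normalized counts) stood above the other samples, of which the next was 479.

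None of the 3 sulfatases measured was called, against 18.8% of all genes tested, and all had negative estimates. Arsa, whose enzyme desulfates the sulfatide of myelin, had 1819, 1391, 1351, 1395 and 1979 normalized counts in shControl and 1207, 1169, 1228, 1340 and 1436 in shOpn3. Its 2 highest values were those of shControl replicates 1 and 5, and each shOpn3 sample was below its same-numbered control (log2 change -0.30 with SE 0.117, limma adjusted p = 0.0983; with the replicate block, limma adjusted p = 0.0304). Ids, the iduronate sulfatase of Hunter syndrome, and Arsb, the sulfatase of dermatan sulfate, had log2 fold changes of -0.10 and -0.02.

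Enzymes and activators of lipid breakdown held 0 calls among 5 genes by limma and 0 by edgeR, and Smpd1 alone had an unadjusted p under 0.05. With so few genes, 0 calls is not set apart from the 18.8% called over all genes tested. Smpd1, the acid sphingomyelinase, had a log2 fold change of -0.22 with an SE of 0.0896 (limma adjusted p = 0.106) and was lower in 5 of 5 pairs, and it passed with the replicate block (limma adjusted p = 0.0204). Psap encodes prosaposin, the precursor of the saposins that present sphingolipids to their enzymes. It went from 56740 ± 10244 to 67774 ± 10093 normalized counts (mean ± SD, n = 5 each, log2 change 0.26 with SE 0.143, limma adjusted p = 0.238). Gm2a, the GM2 activator, had a log2 fold change of 0.14. Those of Ppt1, a palmitoyl-protein thioesterase, and of Asah1, the acid ceramidase, were -0.05 and -0.15.

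Of 6 membrane proteins, 1 was called (16.7%, near the 18.8% of all genes tested). Laptm5 (ENSRNOG00000011054), a lysosomal transmembrane protein of blood-derived cells and microglia, had 1578, 1395, 1163, 1360 and 1817 normalized counts in shControl and 3069, 2112, 3643, 4475 and 3044 in shOpn3. Each shOpn3 sample exceeded every control, with replicate 2 lowest and replicate 4 highest. It rose from 1463 ± 247 to 3269 ± 869 (mean ± SD, n = 5 each, log2 change 1.13 with SE 0.177, limma adjusted p = 0.00116).

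The general membrane markers gave other values. Lamp1 (ENSRNOG00000019629) had 22570, 19997, 20739, 21635 and 25862 normalized counts in shControl and 21898, 17350, 20638, 24014 and 21126 in shOpn3. The groups overlapped over most of their range (log2 change -0.08 with SE 0.0999, limma adjusted p = 0.630; 0.04 after quantile normalization). Lamp2 (ENSRNOG00000000164), needed for fusion of autophagosomes and for chaperone-mediated autophagy, had 8257, 8274, 8600, 9184 and 9440 in shControl and 9811, 8415, 11232, 12807 and 10102 in shOpn3. In shOpn3 only replicate 2 lay within the control range (log2 change 0.25 with SE 0.103, limma adjusted p = 0.119; with the replicate block, limma adjusted p = 0.0430). Scarb2, the receptor that carries glucocerebrosidase to the lysosome, had a log2 fold change of -0.03. Mcoln1, the calcium channel TRPML1, had one of -0.05, and Cln3, the Batten disease protein, one of 0.11.

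Grn and Tfeb stood apart from the enzymes. Grn (ENSRNOG00000021031) encodes progranulin, which is secreted, taken up into lysosomes and cut into granulins, and whose loss leads to frontotemporal dementia or, when complete, to a lipofuscinosis. It had 2855, 2488, 2116, 2280 and 2977 normalized counts in shControl and 4589, 3265, 4979, 7734 and 4920 in shOpn3. The groups did not overlap, and Grn rose (log2 change 0.96 with SE 0.185, limma adjusted p = 0.00383).

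Tfeb (ENSRNOG00000014666), the transcription factor that acts on the CLEAR element, had 365, 179, 164, 196 and 401 normalized counts in shControl and 193, 114, 119, 209 and 160 in shOpn3. The control samples fell into 2 high values, replicates 1 and 5, and 3 values that overlapped with shOpn3. The log2 fold change was -0.65 (SE 0.276) with a limma adjusted p of 0.125, and 4 of 5 pairs were lower in shOpn3. With the replicate block Tfeb was called lower (limma adjusted p = 0.0298), as it was after quantile normalization (log2 fold change -0.76, limma adjusted p = 0.0429). The oligodendrocyte markers, summed, were also highest in shControl replicates 1 and 5 (1006930 and 1306850 normalized counts, against 770445 to 836889 in the other controls). So were the summed microglial markers (21269 and 21398, next 19174) and astrocyte markers (350686 and 390210, next 306106). The markers of oligodendrocyte precursors were likewise highest there (16665 and 18350, next 14044). Neuronal markers were lowest there (165058 and 137982, next 179476). Magnocellular markers were highest in shControl replicate 1 (171069) and lowest in replicate 5 (62721). Perivascular macrophage and monocyte markers were highest in shControl replicate 4 (4893). Those of endothelium and pericytes were highest in replicate 2 (24302) and lowest in replicate 5 (22344). Whether any of these cell types bear on Tfeb was not tested. In 18 of 38 genes (47.4%) shControl replicates 1 and 5 held the 2 highest values of their group, against 32.6% of all genes tested. Among the 18 were Arsa, Cln3, Psap and Tfeb, and also the called genes Ctss, Ctsh, Grn and Laptm5.

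The promoter windows shown above can be set beside these values. The genes with the PU.1 core were Ctsc, Ctss and Ctse, all called higher, and Gla, which was not called. The genes with the CLEAR core, Ctsd, Lamp1, Cln3 and Mcoln1, held 0 calls, with 0 at an unadjusted p under 0.05 and 0 by edgeR. Genes with this core are too few here to set 0 calls apart from the 18.8% called over all genes tested. They are also too few to set 0 apart from the 32.0% of all genes tested with an unadjusted p under 0.05. Over all tested genes with a matched window, 21.4% of the 281 with the PU.1 core were called higher, against 10.4% of the 10402, and 8.19% were called lower, against 9.08%. Of the 171 with the CLEAR core 4.68% were called higher and 7.6% lower, and of the 954 with the E-box 8.18% and 7.97%. These shares are descriptions and were not tested.

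Ratios of 2 genes within a sample do not depend on how the libraries are scaled, and 6 are given as a description. Exact permutation tests were run on them, but most set a gene already seen to change over one that did not pass. Their direction follows from that choice, so the p-values are not read here. On the log2 scale the mean ratio of Laptm5 to Lamp1 was higher in shOpn3 by 1.21, that of Ctse to Ctsd by 1.19, and that of Grn to Psap, with which its protein is transported, by 0.70. The groups did not overlap in these 3 ratios, and they overlapped in the other 3. The ratio of Ctss to Ctsl was higher by 0.62, in 5 of 5 pairs, and that of Ctss to Ctsk by 0.38, in 4 of 5 pairs. The ratio of Gaa to Gusb differed by -0.88 and was lower in 5 of 5 pairs.

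The size of the difference varied from pair to pair. Over the 38 genes, median log2 differences of shOpn3 from same-numbered controls were 0.095, -0.010, 0.318, 0.367 and 0.056 in pairs 1 to 5. Higher in shOpn3 were 23, 19, 27, 29 and 21 of them. Over all genes tested the median lay between -0.028 and -0.0018. The 10 genes called higher were selected in these same samples, so positive differences follow from that choice. Their medians were 0.66, 0.39, 1.20, 1.27 and 0.61 in pairs 1 to 5. All 10 were higher in every pair except Ctsk in pair 5, whose values were level. Within shOpn3, replicate 4 held the highest value for 8 of the 10 and replicate 2 the lowest for 8 of the 10. Among the 26 genes not called, replicate 4 was likewise highest for 14 (53.8%) and replicate 2 lowest for 17 (65.4%). Over all genes tested, these 2 samples were highest in 26.1% and lowest in 23.7%. Of the 38 genes, 9 were higher in shOpn3 with no overlap (8.03% of all genes tested were), 0 were lower with no overlap (7.23%), and 22 went the same way in 5 of 5 pairs, 15 of them higher (18.7%) and 7 lower (20.7%).

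Further lists of lysosomal genes, also chosen with earlier results of these data known, showed where calls were many and where they were few. Of 31 further hydrolases and cofactors tested, 9 rose and 3 fell (median log2 fold change 0.18). That was 38.7% called, against 18.8% of all genes tested. The largest rises were those of Ctsw, a cathepsin of cytotoxic lymphocytes (1.63, SE 0.313), Acp5, the tartrate-resistant phosphatase (1.38, SE 0.337), and Rnaset2, a lysosomal ribonuclease (1.06, SE 0.158), and the falls were those of Arsg, a heparan sulfatase (-0.52, SE 0.0914), Aga, which cleaves glycan from asparagine (-0.38, SE 0.0852), and Epdr1 (-0.38, SE 0.0969). Limma adjusted p for these 6 lay between 0.000915 and 0.0176.

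Of 27 further membrane proteins 5 rose and 4 fell (median 0.06), or 33.3% called, against 18.8% of all genes tested. Cd68, the macrophage sialomucin macrosialin, rose by 2.82 (SE 0.202), Lamp5, a LAMP-family protein of neurons and plasmacytoid dendritic cells, by 1.36 (SE 0.165), and Slc11a1, the phagosomal metal transporter, by 1.31 (SE 0.340). The largest falls were those of Tmem63a, an ion channel of oligodendrocytes (-1.15, SE 0.246), Abca2, a lipid transporter of myelinating cells (-0.86, SE 0.236), and Npc1, the cholesterol exporter (-0.57, SE 0.115). Limma adjusted p for these 6 lay between 2.22e-05 and 0.0239.

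The machinery that serves all lysosomes held few calls in the fit without the block. Of 19 subunits of the proton pump V-ATPase, which acidifies the lysosome, 1 fell, Atp6v1f (-0.39, SE 0.0965, limma adjusted p = 0.0144), and with the replicate block 2 were called lower. Of 18 genes for enzyme sorting 1 fell, Gnptg, a subunit of the enzyme that makes the mannose 6-phosphate tag (-0.39, SE 0.122, limma adjusted p = 0.0406), and with the block 5 were called lower. Of 18 genes for TFEB relatives and lysosomal mTORC1 control 1 rose, Tfec, the macrophage member of the family (2.72, SE 0.354, limma adjusted p = 0.000483), and with the block 2 were called higher and 4 lower. Of 28 autophagy genes 1 rose, Rab7b (0.56, SE 0.154), and 2 fell, Wipi1 (-0.47, SE 0.130) and Gabarapl2 (-0.22, SE 0.0568), with limma adjusted p from 0.0197 to 0.0245, and with the block 1 was called higher and 5 lower. These shares, 5.26%, 5.56%, 5.56% and 10.7%, lay below the 18.8% called over all genes. With the block they were 10.5%, 27.8%, 33.3% and 21.4%, beside 30.3% of all genes, and the 5 sorting genes called lower (27.8%) stood beside 15.2% of all genes. Positive log2 fold changes were held by 52.6%, 44.4%, 38.9% and 14.3% of these lists, in the same order, against 47.0% of all genes tested. Lower in 5 of 5 pairs were 4, 5, 8 and 8 genes (20.7% of all genes tested were), and higher were 1, 0, 3 and 2 (18.7%).

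Inhibitors of the cathepsins and related protease inhibitors moved in both directions. With Cst7 counted 57.1% were called, against 18.8% of all genes tested (10.4% higher and 8.48% lower). Of the 7 tested, 3 were higher and 1 lower. Among the 3, Cst7, cystatin F of microglia and lymphocytes, had means of 5.23 and 18.3 normalized counts, so it passed the filter only through the group in which it was higher, and its call is not read as a result. Serpinb1a rose by 1.18 (SE 0.197) and Serping1, the complement C1 inhibitor, by 1.15 (SE 0.182). Cst6, cystatin E/M, fell by 0.55 in log2 terms (SE 0.141, limma adjusted p = 0.0174).

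**Figure D4:**
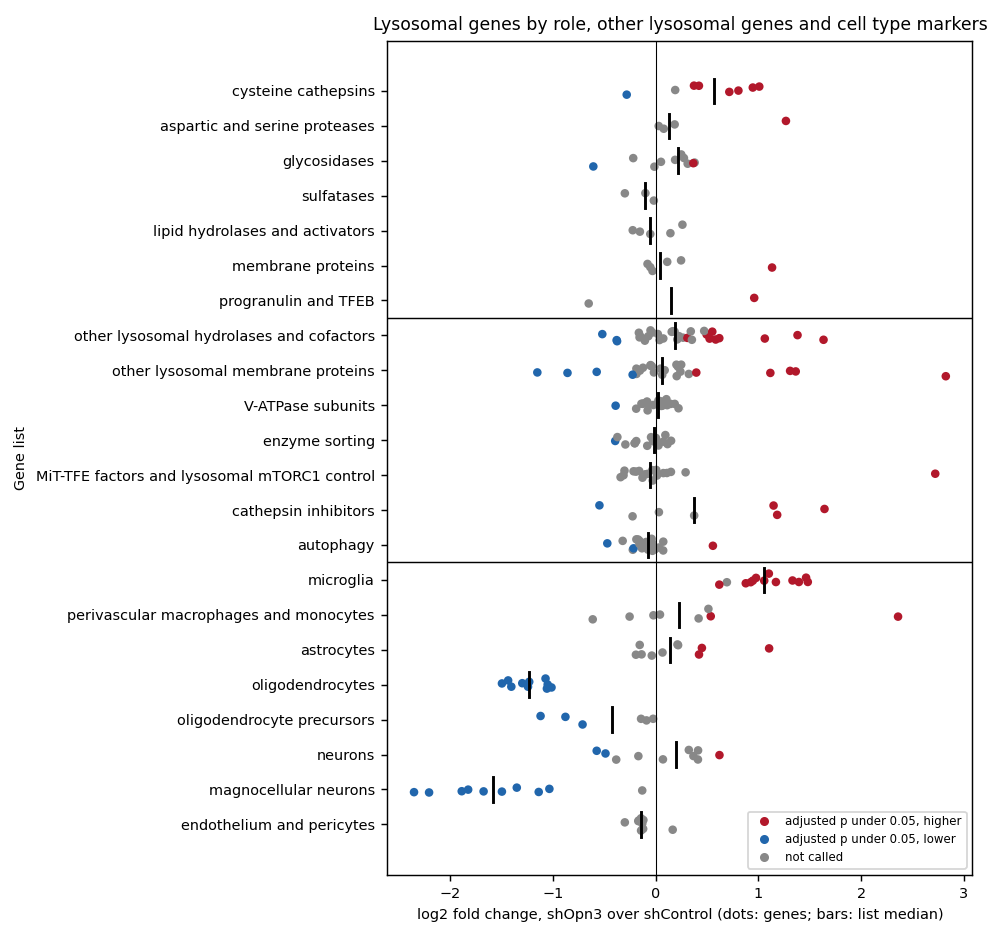
Dots are log2 fold changes of single genes and black bars are list medians; lists are the lysosomal genes by role (top), other lysosomal genes (middle) and cell type markers (bottom), with genes called higher in red and lower in blue. Cysteine cathepsins (median 0.57) and microglial markers (1.06) lie to the right, oligodendrocyte (-1.24) and magnocellular (-1.59) markers to the left, and V-ATPase and sorting genes around 0.

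Markers of several cell types moved with these genes. Over all genes tested, 10.4% were called higher and 8.48% lower. Of 13 microglial markers tested 12 were higher and 0 lower, with a median log2 fold change of 1.06. Their summed level ran from 17521 to 21398 normalized counts in shControl and from 28337 to 54662 in shOpn3, lowest there in replicate 2 and highest in replicate 4. The sums of cysteine cathepsins, further hydrolases and cofactors, cathepsin inhibitors and astrocyte markers were also lowest in shOpn3 replicate 2 and highest in replicate 4. So were those of lipid hydrolases and activators (73537 and 101526), both lists of membrane proteins (40070 and 55264, 68399 and 87703), and Grn with Tfeb. Neuronal markers and V-ATPase subunits ran the other way. They were highest in shOpn3 replicate 2 (230569 and 203353) and lowest in replicate 4 (135265 and 164577). Other lists had other orders. Of the microglial markers only Siglech, at a mean of 2.25, was below the filter, and none was at 0 in all samples. Of 8 markers of perivascular macrophages and monocytes 2 were higher, and their sums were 2694 to 4893 and 5154 to 36692. In shOpn3 most of this sum was Cd74 (3214 to 33590, against 1260 to 3332 in shControl). Without Cd74 the sums were 1423 to 2102 and 1923 to 3102. Astrocyte markers had 3 of 10 higher (sums 291416 to 390210 and 341238 to 479593). All 10 oligodendrocyte markers were lower (770445 to 1306850 and 266022 to 497478), as were 3 of 6 markers of their precursors (12636 to 18350 and 10737 to 14764) and 9 of 10 magnocellular markers (62721 to 171069 and 13180 to 36449). Of 10 neuronal markers 1 was higher and 2 lower (137982 to 195221 and 135265 to 230569), and 0 of 9 endothelial and pericyte markers were called by limma, with 0 at an unadjusted p under 0.05, 0 by edgeR and 1 called higher with the replicate block (22344 to 24302 and 20020 to 27352).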

How the data were processed

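RNA sequencing had been done on 10 punches of rat supraoptic nucleus, 5 per group. The deposited table gave, per gene and sample, a signal, namely read counts divided by 1 size factor per sample; this was read from the values, which were whole multiples of each sample's smallest positive value (100% within a tolerance of 0.001), so that whole reads were recovered. Per the file headers it also held the authors' log2 fold change with its standard error, a Wald score and p-values, and a mean signal. The submitters' processing notes name FastQC, STAR, featureCounts and DESeq2. Their versions, the genome build, the annotation and the use of strand are not given in the sources used here, so cathepsins with similar sequences and genes that overlap others are uncertain.

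The 15597 genes whose mean reached 10 were put on the scale log2(normalized count + 1) and tested with limma 3.58.1 (R 4.3.3; lmFit, eBayes with trend; group as the only term), two-sided, with Benjamini-Hochberg adjustment over all of them and a threshold of 0.05. Fold changes on this scale understate those of low genes. On the recovered reads, edgeR 4.0.16 (quasi-likelihood test) called 3025 genes and DESeq2 1.42.0 called 3711, as alternatives. Others were pseudocounts of 0.5 and 5, other filters and scalings, limma-voom and left-out samples. The SE covers the spread between these samples only, and no label says that equal numbers mark the same rat. Samples of equal number nevertheless deviated together from the means of their groups across genes in all 5 pairs (r from 0.121 to 0.439, against -0.447 to 0.360 with a median of -0.205 for unlike numbers, and shControl replicate 4 correlated more with shOpn3 replicates 2 and 3 than with 4), so equal numbers were treated as pairs, and limma and edgeR were also fitted with number as a blocking term. Values in every sample are given for the 8 called genes with the largest change, for those called against the main direction, and for Lamp1, Lamp2, Tfeb, Grn and Ctsd; from other lysosomal lists the 3 largest rises and falls among called genes are named. The genes and lists were chosen with earlier results of these data known. The tests were tried on simulated data.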

Additional observations from a re-analysis of the deposited data

Results flagged for a closer look

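Each of 78 group values (the 38 lysosomal genes and Opn3, in each group) was searched for a sample whose gap to the nearest other sample took up more than 0.71 of the range of its group of 5. This picked out 4 values, while about 3.9 would be picked by chance at 1 in 20. Glb1 stood highest in replicate 4 of both groups, at 1582 normalized counts in shControl (next 1241) and 2253 in shOpn3 (next 1564). Gaa stood at 23279 in shControl replicate 1 (next 15655) and Gusb at 692 in shControl replicate 5 (next 611).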

How the results depend on the processing

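Of the 12 calls, 7 (Ctsc, Ctse, Ctsh, Ctss, Ctsz, Grn and Laptm5) were made in all 28 alternative fits, with a highest adjusted p of 0.0424, while Ctsb was called in 26, Manba in 22, Gaa in 21, Ctsk in 15 and Ctsf in 13. Of the 26 genes not called, 14 were called in no alternative. Leaving out samples gave from 1604 to 3056 genes called in all, from 7 to 16 lysosomal genes called, from 7 to 14 of them higher and from 0 to 2 lower, and a median log2 fold change of the 38 genes from 0.09 to 0.22. The lowest counts came without replicate 3 of both groups (1604 genes, and 7 lysosomal genes, all higher), and 1895 genes were called without replicate 2 of both. With the replicate block limma called 4726 genes, and 17 lysosomal genes of which 5 lower, and edgeR with the block called 4777, and 16 of which 5 lower. Limma-voom with sample quality weights called 5085 genes, and 19 lysosomal genes of which 4 lower. Lower calls numbered 1 with no filter on low values, 1 after quantile normalization and 0 after scaling to the total. That scaling gave 2139 higher of 2974 calls (71.9%, against 55.0%) and moved the median of all genes from -0.02 to 0.05. The cause of these moves was not tested.

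Some genes near 0 changed sign, and none of these values was called. After quantile normalization the log2 fold changes were 0.00121 for Idua, 0.0164 for Ids, 0.0819 for Arsb, 0.0331 for Ppt1, 0.0359 for Lamp1 and 0.0896 for Scarb2. After scaling to the total they were 0.0581 for Idua, 0.0526 for Arsb, 0.0182 for Ppt1, 0.0397 for Scarb2 and 0.0180 for Mcoln1. With quality weights they were -0.00873 for Gla, 0.0241 for Idua, 0.0429 for Arsb and 0.00174 for Mcoln1. Without replicate n of both groups, Tpp1 was at -0.000806 (n = 3) and -0.0412 (n = 4), Idua at 0.0279 (n = 2) and 0.0110 (n = 5), and Arsb at 0.00734 (n = 1) and 0.0398 (n = 5). With a single sample left out, Tpp1 lay between -0.0320 and 0.128, Ppt1 between -0.101 and 0.000100, Cln3 between -0.0127 and 0.247, Idua between -0.0486 and 0.0265, Arsb between -0.0605 and 0.0278, and Scarb2 between -0.0615 and 0.0244.

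With 5 samples per group and at least 33158341 reads each, the SE of genes not called lay between 0.0770 and 0.276 on the log2 scale, and a change that did not pass is not shown to be absent.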

Other observations

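Counted together, the 38 lysosomal genes took 0.827%, 0.736%, 0.692%, 0.721% and 0.813% of the normalized counts of shControl replicates 1 to 5 and 0.925%, 0.732%, 0.901%, 1.04% and 0.885% of those of shOpn3 replicates 1 to 5. The sample shOpn3 replicate 2 lay inside the control range and the other 4 shOpn3 samples above it. The authors' deposited table listed 12 of the 38 genes with an adjusted p under 0.05, 10 of them higher, among 3711 of 17437 genes. Its log2 fold change was 1.39 for Ctse, 1.16 for Laptm5 and -0.72 for Tfeb, the last with an adjusted p of 0.0506.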
